A study of Mus musculus with 6 samples.

Results

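Rbfox1 and Rbfox2 encode RNA-binding proteins that control alternative splicing in muscle and in neurons. They were chosen by name, with results of these data known, partly because 4 Setdb1 sites lie next to one another around Rbfox2 on chromosome 15. They are 2 of the 37252 genes annotated on the mouse genome build mm9. All regions that the authors listed in the bodies of these genes and in the 50 kb on each side were taken, which gave 21 of the 104939 regions in the 3 deposited lists. At Rbfox2 these were 5 Setdb1 sites, 7 narrow H3K9me3 peaks and 3 broad H3K9me3 islands, and at Rbfox1 they were 6 narrow H3K9me3 peaks. Over the same distance 9.42% of protein-coding genes had at least 1 Setdb1 site and 77.9% at least 1 H3K9me3 peak.

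The lists came from chromatin immunoprecipitation and sequencing in C2C12 myoblasts, an established line of mouse muscle precursor cells, which were proliferating in 20% fetal calf serum and, for H3K9me3, were given no treatment. Setdb1, an enzyme that methylates lysine 9 of histone H3, and H3K9me3, the trimethylated lysine that marks silent chromatin, were each precipitated and compared with an input library of their own. The labels give 1 library per group, so no value below has a replicate error, intervals on tag counts cover counting error only, and no test between conditions was possible. The study reports independent Setdb1 experiments, of which the most enriched was used for peak calling, so the Setdb1 list rests on that experiment alone. Setdb1 was also precipitated from cells given DMSO or Wnt3a. Nothing in the single Setdb1 list names its library. The study describes the listed sites as those of proliferating myoblasts and names no Wnt3a treatment for them. Whether the cells were untreated or given DMSO is not known here, and no treatments were compared. No RNA was measured in these lists, so neither the myoblast label nor the activity of any gene was checked.

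Rbfox proteins recognise the RNA element UGCAUG, mostly in introns, and depending on its side of an alternative exon they favour or oppose inclusion of that exon. Rbfox2 is made in many cell types, myoblasts among them, whereas Rbfox1 is mainly found in brain, heart and skeletal muscle, and Rbfox3, their paralog, is the neuronal marker NeuN. All members of the family have long introns and several promoters, so that transcripts with different first exons are made from the same gene.

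Rbfox2 (ENSMUSG00000033565.9) lies on the minus strand of chromosome 15 from 76909420 to 77137483 (mm9), a span of 228 kb with 8 annotated transcripts and 4 distinct starts. Its Setdb1 sites are numbered here along transcription. Sites 1, 2 and 3 lay within the gene and sites 4 and 5 beyond its 3′ end. Sites 1, 2 and 4 each contained a related stretch of sequence that was not found in sites 3 and 5, given here 5′ to 3′ from the mm9 genome on the strand named. The capitals mark the longest word, of 12 letters, that any 3 of the 5 sites shared on either strand.
Site 1, chr15:77016697-77016786, minus strand: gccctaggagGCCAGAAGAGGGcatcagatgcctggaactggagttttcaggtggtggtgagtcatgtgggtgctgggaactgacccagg
Site 2, chr15:76964765-76964854, plus strand: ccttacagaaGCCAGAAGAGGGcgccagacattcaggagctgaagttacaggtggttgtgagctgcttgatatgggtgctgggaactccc
Site 4, chr15:76906968-76907057, plus strand: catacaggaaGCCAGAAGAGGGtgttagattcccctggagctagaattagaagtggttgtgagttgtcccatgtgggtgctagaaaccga
Rbfox3 site, chr11:118321758-118321847, plus strand: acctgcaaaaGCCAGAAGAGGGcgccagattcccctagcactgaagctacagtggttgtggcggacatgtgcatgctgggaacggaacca

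Local alignment of the whole sites gave 82 to 114 aligned bases at 71.9% to 75.6% identity between sites 1, 2 and 4. The only Setdb1 site near Rbfox3, shown for comparison, aligned with these 3 over 84 to 89 bases at 73.8% to 77.0% identity. The longest alignment of any other pair of these sites had 34 bases. The word GCCAGAAGAGGG lay 212 and 201 bases from the summits of sites 1 and 2 and nearer to that of site 4. Searched on both strands, it occurred in 10.7% of all 1191 Setdb1 sites taken over their whole length. In windows of 301 bases around the summit it was present in 7.39% of all Setdb1 sites, 1.66% of all H3K9me3 peaks and 0.223% of windows placed every 100 kb along the genome. Among the sites of Rbfox2 only that window of site 4 held it. The word was taken from these sites, so its presence in them is no finding. A repeat annotation was not used, so no repeat family is named.

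The fold enrichment of the Setdb1 sites at Rbfox2 lay between percentiles 12.1 and 79.3 of the list. Site 1, from 77016306 to 77016913 in an intron 121 kb from the first start, held 47 tags (sequenced reads, exact 95% Poisson interval 34.5 to 62.5) and was enriched 9.38-fold over input, the 79.3rd percentile of all Setdb1 sites. Site 2, from 76964697 to 76965301, held 38 tags (26.9 to 52.2) at 5.63-fold. Site 3, from 76916987 to 76917656, held 38 tags as well (26.9 to 52.2) at 6.48-fold. Thus only site 1 was above the median fold enrichment of the list, which was 7.32, and it was also the only one of the 5 with a false discovery rate of 0.

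Beyond the 3′ end, site 4, from 76906878 to 76907600, held 41 tags (29.4 to 55.6) at 6.56-fold. Site 5, from 76888558 to 76889420, held 45 tags (32.8 to 60.2) at 5.37-fold. The intervals of the 5 tag counts all overlapped, which is no test of a difference between the sites. Tags were not scaled for the length of a site or for its background. Sites 2 to 5 form the group of 4 and spanned 76.7 kb, with summits 47.8, 10.1 and 17.9 kb from one another in that order. Site 1 stood 51.6 kb from site 2, just over the 50 kb used to join sites into a group. Site 5, 20.3 kb past the gene, was the farthest inside the limit of 50 kb, and the next Setdb1 site outside it was 805 kb away, with 58 tags and 6.13-fold. For H3K9me3 peaks the farthest inside was 37.1 kb from the gene (19 tags, 6.62-fold) and the next 68.2 kb (32 tags, 3.79-fold).

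**Figure D1:**
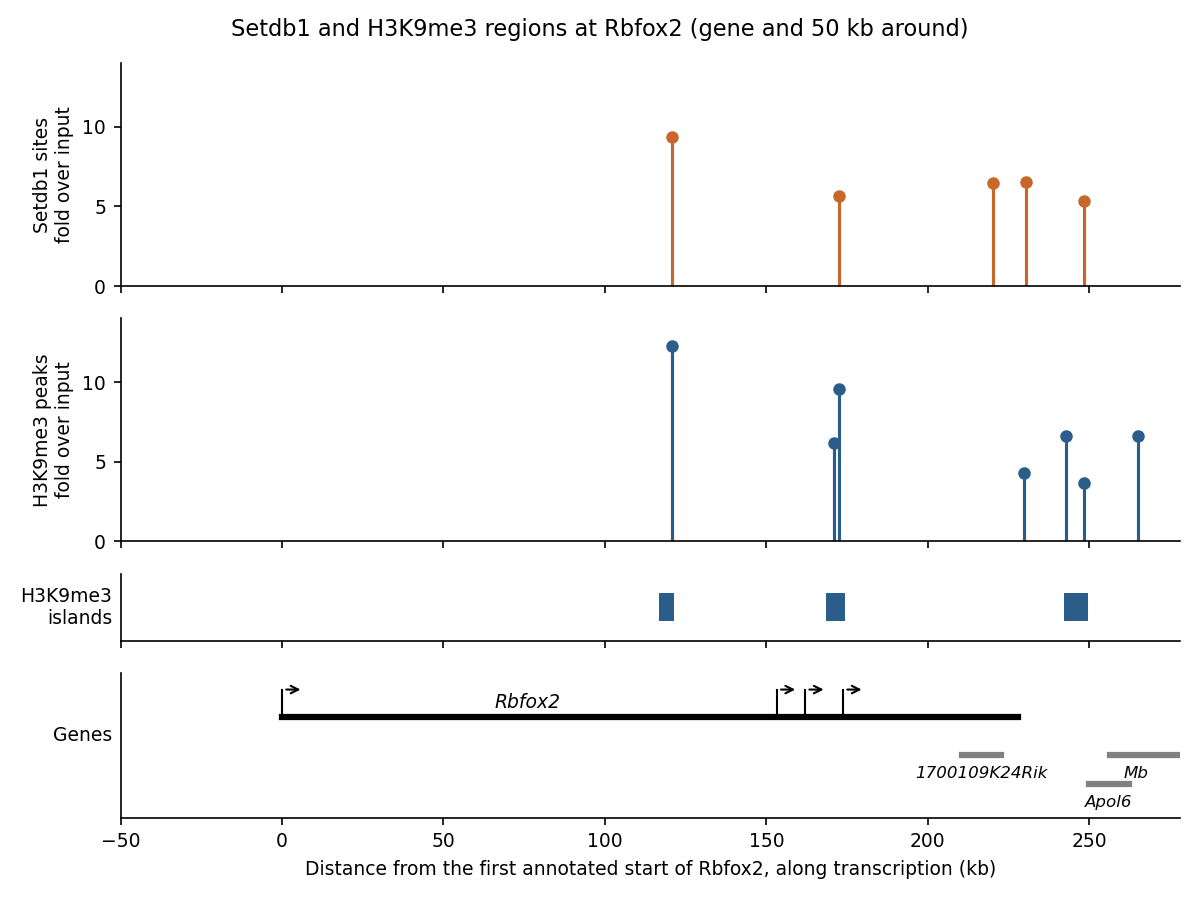
Map of Rbfox2 with 50 kb on each side, where the x axis is the distance in kb from the first annotated start along transcription and the upper panels give the fold enrichment over input of Setdb1 sites (orange) and H3K9me3 MACS peaks (blue). Blue boxes are SICER islands, arrows are annotated starts and grey bars are other genes. All 5 Setdb1 sites lie about 121 kb or more after the first start, and none lies upstream.

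Only 2 of 22350 protein-coding genes (0.00895%) had 3 or more Setdb1 sites within their bodies, Rbfox2 and Dlgap2. Dlgap2, a gene of the postsynaptic density, is named here after its values were seen. Both genes are long, of 228 and 752 kb, and site 3 of Rbfox2 also lies in an intron of 1700109K24Rik. At least 1 site in the body was found in 2.19% of protein-coding genes and in 7.5% of the 2399 of at least 100 kb. In 0.0134% of protein-coding genes, 5 or more lay in the body or within 50 kb. Since the number of sites was part of the choice of Rbfox2, these counts describe it and are no test. Tags were high for their enrichment on chromosome 15 as a whole. Its 92 sites had a median of 6.41 tags per unit of fold enrichment and a median enrichment of 6.14-fold, against 4.44 tags and 7.38-fold on the other chromosomes. The 5 sites at Rbfox2 had 5.01 to 8.38 tags per unit, and whether this background has a part in the number of sites called there was not tested. For H3K9me3 peaks too the median was higher on chromosome 15, at 4.18 tags per unit against 3.09 on the other chromosomes. The H3K9me3 peaks over Setdb1 sites at Rbfox2 had 7.83 to 12.6, which also bears on their tag counts below.

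H3K9me3 lay over 4 of the 5 Setdb1 sites, beside 68.8% of all Setdb1 sites, and most strongly over sites 1 and 2. Counted by gene, at least 1 Setdb1 site in an H3K9me3 region, in the body or within 50 kb, was found for 6.05% of protein-coding genes. An H3K9me3 peak from 77016116 to 77017154 covered the whole of site 1, with 96 tags (77.8 to 117) and 12.26-fold enrichment, the 99.3rd percentile of all H3K9me3 peaks. Its summit was 137 bp from the Setdb1 summit. Another, from 76964710 to 76966078, covered 97.9% of site 2 with 119 tags (98.6 to 142) and 9.58-fold enrichment, the 96.7th percentile. These peaks also stood in islands of 4.4 and 6 kb. One more peak within the gene, from 76966357 to 76967207 (56 tags, 6.17-fold), shared the island of site 2 and held no Setdb1 site.

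Over the downstream sites the H3K9me3 peaks had fewer tags and lower enrichment than over sites 1 and 2. The peak over site 4 had 41 tags (29.4 to 55.6) and 4.31-fold enrichment, and stood in no island. That over site 5 had 46 tags (33.7 to 61.4) and 3.65-fold enrichment, at the 0.638th percentile of the list, yet an island of 7.60 kb ran over it. A second peak in that island, from 76894411 to 76894893, had 25 tags and 6.61-fold enrichment and held no Setdb1 site. The tag intervals of the peaks over sites 4 and 5 did not reach those over sites 1 and 2, while the Setdb1 intervals of the same sites overlapped. These intervals cover counting error only, and the difference was not tested. Tags were not scaled for length, and the peaks over sites 1 and 2 were longer (1039 and 1369 bp against 795 and 989 bp). The peak of 56 tags (42.3 to 72.7) within the gene overlapped the intervals over sites 4 and 5. Site 3 overlapped neither a peak nor an island. The peaks over sites 4 and 5 had scores (minus 10 times the log10 of the p-value) of 32.8 and 45.1, where the lowest in the list was 30.0. With only H3K9me3 peaks of p below 1e-05, 3 Setdb1 sites of the locus stayed in H3K9me3 regions, site 5 through its island alone. In the whole list 68.8% of Setdb1 sites overlapped an H3K9me3 region of either kind.

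**Figure D2:**
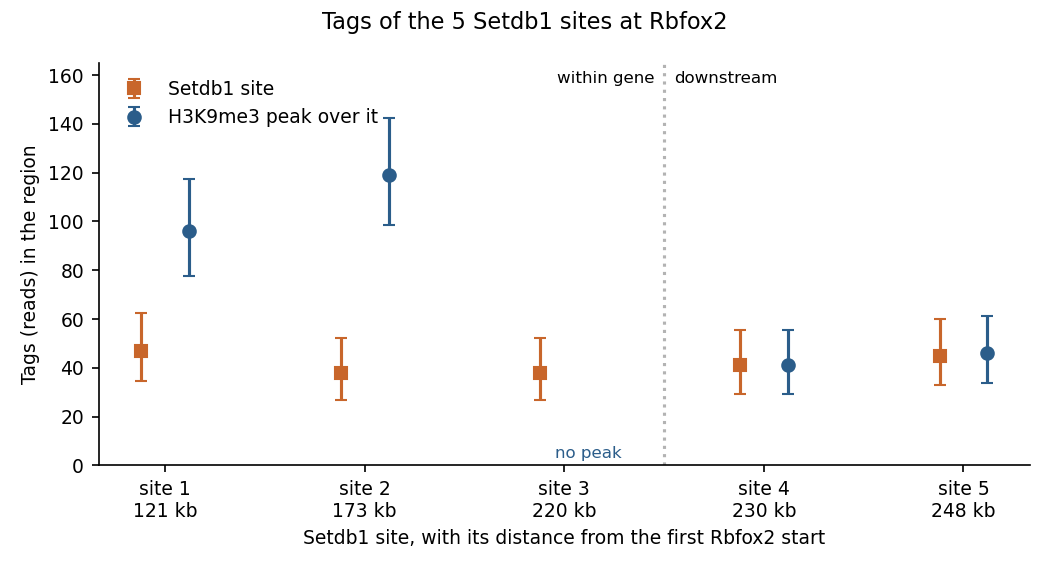
Tags, in reads per region, of the 5 Setdb1 sites at Rbfox2 (orange squares) and of the H3K9me3 peak over each (blue circles), with exact 95% Poisson intervals that cover counting error only, ordered along transcription. The Setdb1 counts lie between 38 and 47, whereas H3K9me3 goes from 96 and 119 within the gene to 41 and 46 downstream, with no peak at site 3.

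Among the starts of Rbfox2, the mark reached only the last. The fourth start, at 76963681, from which the 2 shortest transcripts run, lay in the 6 kb island, and 5% of all 86803 annotated starts lay in an island. Site 2 had its summit 1.3 kb upstream of this start, in an intron of the longer transcripts. The remaining starts, at 77137483, 76984242 and 76975428, were 117, 15.2 and 6.43 kb from the nearest island. Setdb1 and H3K9me3 were not listed over the first exon, in the first 117 kb of the gene or in the 50 kb before it.

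Sites 3 to 5 have other genes close by. Site 3 was in an intron of Rbfox2 and at the same time in an intron of 1700109K24Rik, a long non-coding RNA gene on the opposite strand from 76914873 to 76926744, whose start was 2.28 kb away. It cannot be assigned to one of these genes. Site 4 was intergenic, 2.33 kb past the end of Rbfox2. Site 5 was also intergenic, 20.3 kb past that end and 1.61 kb past the end of Apol6, both measured from the summit. Apol6 is a gene of the apolipoprotein L family. Mb, which encodes the oxygen-binding protein myoglobin of muscle, overlapped Apol6 in the annotation and came next. Its span held no Setdb1 site, no island and 1 H3K9me3 peak of 19 tags and 6.62-fold enrichment. The small nuclear RNA gene U6 stood between sites 4 and 5, and a U1 gene within an intron of Rbfox2, neither of them with a region of any list.

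Site 3 aligned with no other site over more than 34 bases. The letters at its summit are shown because it is the site without H3K9me3, beside site 1, which had the H3K9me3 peak of highest fold enrichment, on the plus strand of mm9 with the summit base in capitals.
Site 3, chr15:76917092-76917212: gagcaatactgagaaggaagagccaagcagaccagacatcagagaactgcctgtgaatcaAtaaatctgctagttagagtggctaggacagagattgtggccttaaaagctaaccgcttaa
Site 1, chr15:77016499-77016619: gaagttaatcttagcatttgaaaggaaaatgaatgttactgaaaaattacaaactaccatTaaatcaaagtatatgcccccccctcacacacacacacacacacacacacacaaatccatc

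Over its whole length site 1 contained an alternating run of C and A of 28 bases, and no such run of 10 bases or more was found in the other 4. In the 301 bases around the summit, GC content was 35.5% at site 1, 49.2% at site 2, 45.2% at site 3, 45.8% at site 4 and 48.8% at site 5, against a median of 45.8% over all Setdb1 sites. The ratio of observed to expected CpG ranged from 0 at site 5 to 0.442 at site 2, against a median of 0.181. The DNA form of the Rbfox element, TGCATG on either strand, occurred in 0 of the 5 windows, 22.8% of all Setdb1 windows and 16.8% of genome windows. The E-box CANNTG, the element of myogenic factors, was in 4 of the 5 and in 81.1% of all Setdb1 windows, and 80.1% of genome windows held it too. GGGCGG and CAGCTG were in none of the 5 windows (7.47% and 15.9% of all Setdb1 windows) and CACGTG in that of site 2 (6.88%).

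Rbfox1 had no Setdb1 site. The gene (ENSMUSG00000008658.8) is annotated on the plus strand of chromosome 16 from 6809315 to 7412572, over 603 kb with 7 transcripts and 3 starts, and no other gene is annotated within 50 kb of it. The nearest Setdb1 site lay 2805 kb away. The next H3K9me3 peak outside the limit of 50 kb, of 71 tags and 7.56-fold, lay 104 kb from the gene. Its 5 H3K9me3 peaks within the body, all intronic, had 10, 11, 12, 13 and 18 tags, where the median of the list was 18. Their enrichment was between 4.81-fold and 6.18-fold with a median of 5.5-fold, which was also the median of the list. Their scores (minus 10 times the log10 of the p-value) were between 30.1 and 42.5, where the lowest in the list was 30.0. A sixth peak, of 11 tags and 4.81-fold, lay past the end of the gene. With only peaks of p below 1e-05, none of the 5 remained. No island touched Rbfox1 or the 50 kb on each side.

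The peak with the most tags ran from 6991483 to 6991932 (18 tags, 6.18-fold), and the next began at 6991960 (13 tags, 4.81-fold). The annotated starts were between 6.89 and 149 kb from the nearest H3K9me3 peak. RefSeq places a further start of Rbfox1 upstream, and its promoter sequence matched the mm9 genome once, with the start at 5884886. From there the gene extends over 1528 kb and held 13 H3K9me3 peaks of 10 to 21 tags and 4.12-fold to 6.18-fold enrichment. The peak with the most tags among them, from 5885849 to 5886449 with 21 tags and 4.12-fold, began 0.963 kb after this start. An island from 5891401 to 5895800 followed 6.51 kb after the start and was the only one in the longer span.

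**Figure D3:**
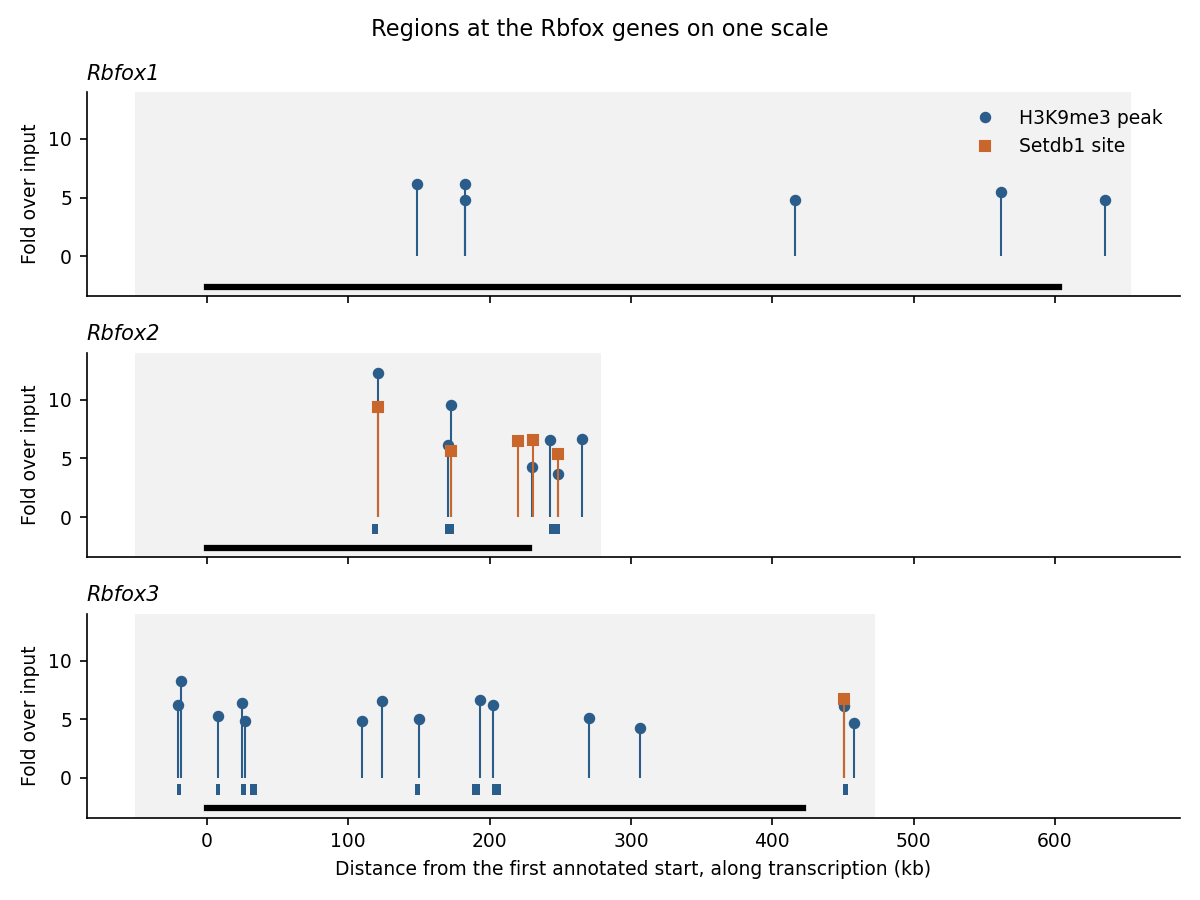
Regions at Rbfox1, Rbfox2 and Rbfox3, drawn on common axes, with the distance in kb from the first annotated start along transcription on the x axis and fold enrichment over input on the y axis. Circles are H3K9me3 peaks, squares Setdb1 sites, blue boxes islands, black bars the gene and grey shading the gene with 50 kb on each side. Rbfox1 has peaks of at most 6.18-fold and no Setdb1 site, and the single site of Rbfox3 lies past its end.

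Rbfox3, their paralog (ENSMUSG00000025576.10, chromosome 11 from 118351074 to 118772911), is given for comparison. Over its 422 kb no Setdb1 site was listed, but 10 H3K9me3 peaks of 11 to 52 tags and 4.27-fold to 6.64-fold enrichment and 6 islands were. Its single Setdb1 site, from 118321652 to 118322198, had 31 tags (21.1 to 44.0) and 6.71-fold enrichment and lay 29.3 kb past the end of the gene. The summit of the H3K9me3 peak over it, of 35 tags and 6.09-fold, was at the same base. One of the internal starts of Rbfox3, at 118622355, was covered by a peak of 26 tags and an island of 3.60 kb.

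**Figure D4:**
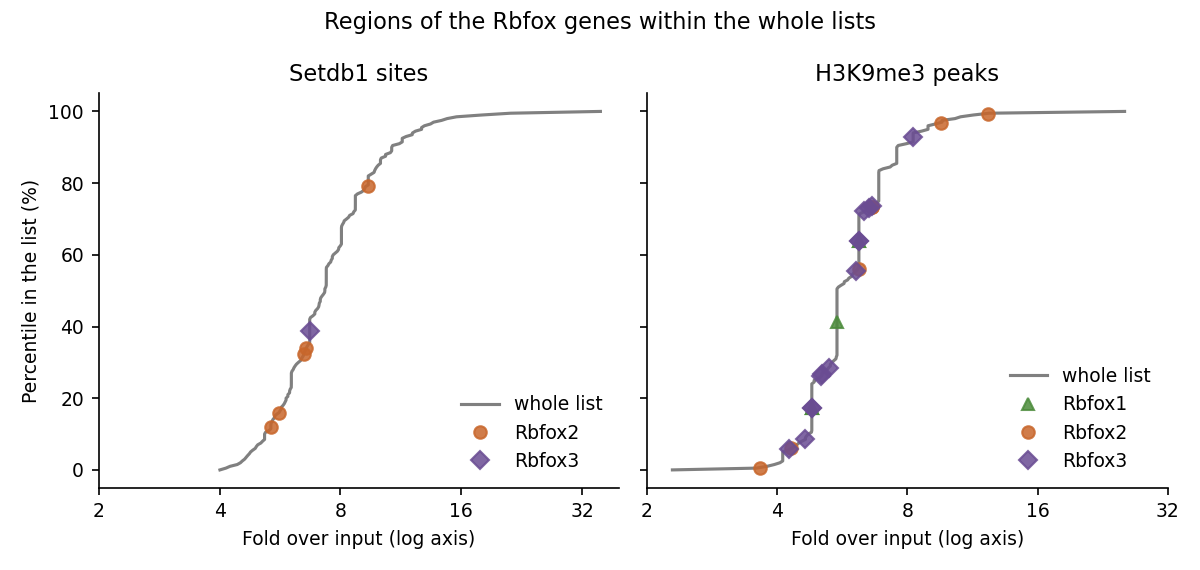
Fold enrichment over input (x axis, log scale) against percentile in the whole list (y axis) for Setdb1 sites on the left and H3K9me3 peaks on the right, where the grey line is the list and the points are the regions at each gene and 50 kb around. Rbfox2 holds the highest H3K9me3 points, at the 96.7th and 99.3rd percentiles, as well as the lowest, at the 0.638th.

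Counted over the whole gene, H3K9me3 peaks per length were below the median of long genes at both Rbfox1 and Rbfox2, while the share in islands was above it at Rbfox2. Among the 2399 protein-coding genes of at least 100 kb, 84% had at least 1 H3K9me3 peak in the body, 62.3% an island (19.4% of all protein-coding genes) and 7.5% a Setdb1 site. Rbfox2 had 1.32 peaks per 100 kb and 4.56% of its body in islands, where the medians of these genes were 1.62 and 2.13%. Rbfox1 had 0.829 peaks per 100 kb and none of its body in islands, as was true of 37.7% of the long genes. For Rbfox3 the values were 2.37 peaks per 100 kb and 6.35%.

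The long genes most like Rbfox2, by the distance between percentile ranks of 3 measures (Setdb1 sites per 100 kb, H3K9me3 peaks per 100 kb and percent of the body in islands), were Notch2, Exoc6 and Snx29. Their distances were 4.53, 5.61 and 7.57 on a scale where each rank goes from 0 to 100. Each had 1 Setdb1 site in the body, not 3, and 4.24%, 4.22% and 3.83% of it in islands. Grlf1, Itsn2 and Nf1 were nearest to Rbfox1, with distances of at most 0.0834. None of them had a Setdb1 site or an island, and their likeness rests on 1 or 2 peaks each. These ranks come from 3 lists of 2 antibodies and not from replicate samples.

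**Figure D5:**
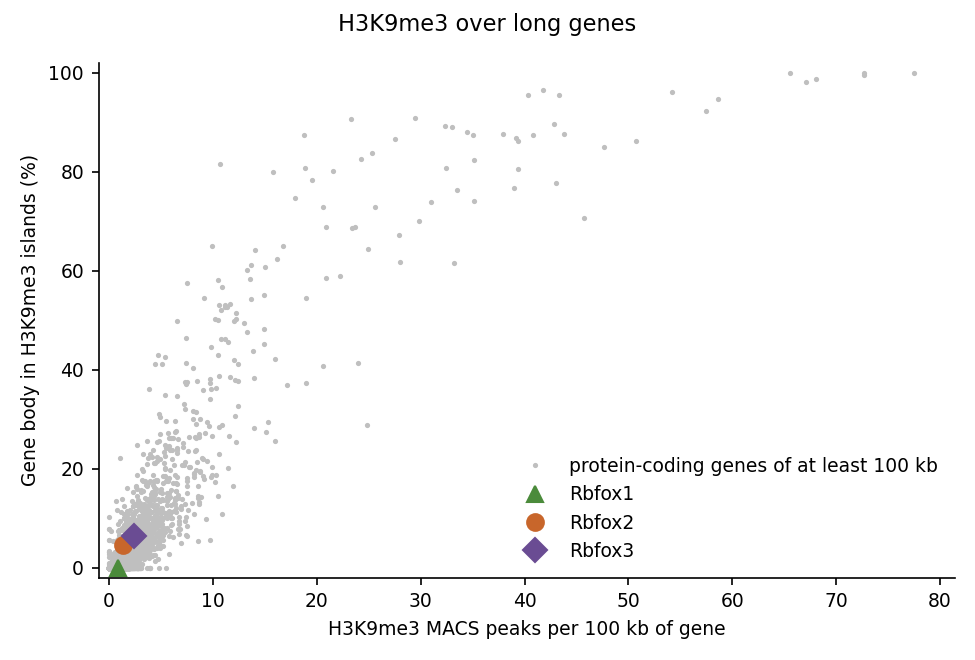
H3K9me3 peaks per 100 kb of gene (x axis) against the percentage of the gene body in islands (y axis) for the 2399 protein-coding genes of at least 100 kb (grey) and the Rbfox genes (coloured). All 3 Rbfox genes are near the origin, with at most 2.37 peaks per 100 kb and 6.35% of the body in islands.

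A list of 33 other splicing regulators, most of them known from muscle or neurons and 2 from epithelia, included Rbfox3. Of these 32 were annotated, and 4 (12.5%) had a Setdb1 site in the body or within 50 kb, beside 9.42% of all protein-coding genes. Mbnl2 was the only one with a site in its body, an intronic site of 32 tags and 6.95-fold in an H3K9me3 region. The site near Tial1, a regulator of splicing and translation, lay 0.428 kb outside the gene, with 35 tags and 7.38-fold and without H3K9me3. That near Esrp2, an epithelial splicing regulator, lay 24.8 kb away in an intron of Nfatc3, with 26 tags and 6.48-fold.

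H3K9me3 peaks were present in the body of 17 of the 32 (53.1%), against 27.6% of all protein-coding genes, a difference not adjusted for the length of these genes, whose median was 78.3 kb. The 8 partners of Rbfox proteins in their large splicing complex, among them Hnrnpm and Ddx5, had neither a Setdb1 site within 50 kb nor an H3K9me3 peak in the body, where the shares of protein-coding genes were 9.42% and 27.6%. These 8 are short genes, of median length 22.3 kb, and no adjustment for length was made. Of 11 genes whose transcripts Rbfox proteins are known to splice, 1 (9.09%) had a Setdb1 site in the body or within 50 kb, beside the same 9.42%. An H3K9me3 peak in the body was listed for 7 of the 11 (63.6%), and an island over the body also for 7, beside 27.6% and 19.4% of protein-coding genes and with no adjustment for length. Among the 7 were Fgfr2, whose annotated span of 3009 kb held 77 peaks and 31 islands, and Ptbp2, which is also in the list of regulators. The gene with a Setdb1 site was Fn1, which encodes fibronectin, with a pair of sites in H3K9me3 regions. The stronger, of 26 tags and 7.49-fold, lay 9.52 kb from Fn1 in an exon of another gene, Apol7d.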

How the data were processed

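Setdb1 and H3K9me3 were each profiled in C2C12 myoblasts with a matching input. Per the submitters' processing notes and the study's methods, the authors aligned reads to mm9 with Bowtie 0.12.7, kept unique alignments, removed PCR duplicates and called peaks over input with MACS 1.4, and H3K9me3 islands with SICER. Unique alignment thins out reads from repeated sequence. Tag counts per peak were deposited by the authors as whole reads, not scaled for depth, and library totals were not used here. The deposited fold enrichment is a ratio to the background that MACS took from the input. The deposited score is minus 10 times log10 of the p-value. The false discovery rate is deposited in percent, and SICER islands have positions only.

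Regions were assigned by summit to genes of the GENCODE annotation on NCBIM37, whose chromosome names and coordinates are those of mm9, and islands by overlap of at least 1 bp. Genes, lists and comparisons were chosen with earlier results of these data known. Named genes are the Rbfox family, genes within 50 kb, members of the lists with a Setdb1 site (at most 6 a list) and the 3 long genes of nearest rank. Hnrnpm and Ddx5 were named as examples after their values were seen. Promoter sequences of RefSeq (GRCm38.p6) were matched to NCBIM37 for Rbfox1 and Rbfox3. Sequence was read from NCBIM37, and sites were aligned locally (match 2, mismatch -3, gap -5 and -2) with simple runs masked. Alternatives changed the distance, the assignment, the gene span and the strength of regions. Analyses used Python 3.11.15, NumPy 2.4.6, SciPy 1.17.1, pandas 2.3.3, Biopython 1.88, pysam 0.24.0 and Matplotlib 3.10.9, and the counting functions were tested on simulated data.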

Additional observations from a re-analysis of the deposited data

How the results depend on the processing

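Of 37 alternatives over 8 results, 29 left the value the same or within 1.5 times. With Setdb1 sites of at least 8-fold enrichment, Rbfox2 kept 1 site within the gene, 0 around it and 1 in an H3K9me3 region, since 4 of its 5 sites are weaker than that. Within 10 kb, 1 Setdb1 site remained outside the gene. With H3K9me3 peaks of p below 1e-05, or of at least 8-fold enrichment, Rbfox1 had 0 peaks in either case. Over the span from its first RefSeq start, an alternative chosen after seeing the data, Rbfox1 had 13 peaks and 0.288% of its body in islands. No paired analysis was possible because no group had more than 1 library. The Setdb1 sites held between 38 and 47 tags with overlapping intervals, while their fold enrichment ran from 5.37 to 9.38. Differences between these sites were not tested.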

Other observations

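Some other splicing regulators had far more of their body in H3K9me3 islands than the Rbfox genes. The following genes of the list of regulators were picked after their values were seen. Srrm4, which drives neuronal microexon splicing, had 86.3% of its body in islands and 60 H3K9me3 peaks, and Khdrbs3, a STAR-family splicing factor on chromosome 15 like Rbfox2, had 79.9% and 26 peaks. Rbm24, a muscle splicing factor, had 73.4% of a short gene in islands. None of the 3 had a Setdb1 site in the body or within 50 kb, where 9.42% of protein-coding genes had at least 1. Of the regulators with such a site, Mbnl2 had 25.5% of its body in islands, Esrp2 58.2%, Rbfox3 6.35% and Tial1 0%. A relation between islands and Setdb1 sites was not tested. Rbfox2, with its 3 sites in the body, had 4.56% in islands. Of the 32 annotated regulators, 12 (37.5%) had an island over the body, beside 19.4% of all protein-coding genes and 62.3% of those of at least 100 kb, and the median length of the 32 was 78.3 kb.

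The word GCCAGAAGAGGG, taken from sites 1, 2 and 4 of Rbfox2, was present in 9.63% of the 820 Setdb1 sites in H3K9me3 regions and in 2.43% of the 371 sites outside them, in windows of 301 bases around the summit. In whole sites the shares were 13.7% and 4.31%. A word without its first letter, the first to be looked at, gave 12% and 3.5% in the windows and 17.2% and 5.93% in whole sites. Sites 1, 2 and 4 all overlap H3K9me3 regions, so the word was chosen among the 820 sites and not among the 371. These shares were seen in single lists and were not tested.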
